A study of Mus musculus with 21 samples.

Results

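The 10 genes described here mark epithelial and mesenchymal states and cell adhesion: *Cdh1*, *Epcam*, *Cldn6*, *Krt8* and *Krt18* on the epithelial side, and *Cdh2*, *Vim*, *Lgals1*, *Fn1* and *Zeb1* on the mesenchymal side. They were taken by name as textbook markers, with earlier results of these data known, and matched by Ensembl identifier in both count tables. The tables list 51467 mouse genes. A gene was tested when at least 3 of the libraries held 3 CPM or more (CPM is the count relative to library size), which left 14518 genes and all 10 members of the set. The libraries came from mouse embryonic stem cells (ESCs) of the V6.5 line grown with LIF, the inhibitors PD0325901 and CHIR99021, and 15% serum. The 3 wild-type cultures were compared with 4 *Ddx6* KO cultures, 2 from each of 2 clones made with CRISPR/Cas9, each grown from cells sorted at clonal density. DDX6 is an RNA helicase of P-bodies that takes part in miRNA-mediated repression. Every culture was labelled with 4-thiouridine (4sU) at 500 µM for 30 min, and its RNA was split into a 4sU-enriched fraction, which reports nascent RNA, and rRNA-depleted total RNA, so that there were 14 libraries. The question put to the genes is whether the adhesion programme of the cells differed between genotypes, since the study describes a change in colony shape after loss of DDX6.

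E-cadherin, the product of *Cdh1*, joins neighbouring ESCs at adherens junctions, and its loss is the hallmark of an epithelial-to-mesenchymal transition. In a full transition *Cdh1*, *Epcam*, claudins and simple-epithelium keratins go down, while N-cadherin (*Cdh2*), vimentin (*Vim*) and fibronectin (*Fn1*) go up. The transition is driven by repressors such as ZEB1, which binds E-box motifs in epithelial promoters. The miR-200 family represses *Zeb1*, and the ESC-enriched cell cycle (ESCC) miRNAs, the most abundant miRNA family of ESCs, share another seed.

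The miRNA seeds are shown first, because miRNA repression is the process DDX6 takes part in and because *Zeb1* is a known target of the miR-200 family. Mature miRNAs from RefSeq (GRCm38.p6) are printed 5′ to 3′ with the seed, bases 2 to 8, in capitals. The ESCC family shares the seed AAGUGCU, while the seed of miR-200a differs from that of miR-200b and miR-200c.
mmu-miR-291a-3p: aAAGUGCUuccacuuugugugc
mmu-miR-294-3p: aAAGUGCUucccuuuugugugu
mmu-miR-302b-3p: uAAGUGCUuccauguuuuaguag
mmu-miR-200a-3p: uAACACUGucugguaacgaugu
mmu-miR-200b-3p: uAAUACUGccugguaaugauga
mmu-miR-200c-3p: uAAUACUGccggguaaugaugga

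Matches to these seeds were counted in the 3′ UTR of each gene's principal transcript in the Gencode M21 annotation. Of the protein-coding genes tested, 11877 had an annotated 3′ UTR, and 3.19% of them held the 8-base ESCC site AGCACTTA, 14.2% held the miR-200b/c site CAGTATT, 18.9% the miR-200a site CAGTGTT and 27.9% the AU-rich element TATTTAT. *Vim*, an intermediate filament protein of mesenchymal cells, was the single gene of the 10 with an ESCC 8-base site, at bases 137 to 144 of a 3′ UTR of 312 bases. *Fn1* held 1 site for each miR-200 seed and 1 AU-rich element, and *Cldn6* held 1 miR-200a site. *Zeb1*, with a 3′ UTR of 2401 bases, held 5 miR-200b/c sites, 4 miR-200a sites and 2 AU-rich elements. The shorter 6-base ESCC match GCACTT, present in 30.6% of these genes, occurred 1 time each in *Vim* and *Zeb1*. None of these motifs was found in the 3′ UTRs of *Cdh1*, *Epcam*, *Krt8*, *Krt18*, *Cdh2* and *Lgals1*, of which that of *Krt18* is 66 bases long against a median of 983 over the tested genes. The windows of *Vim*, *Fn1* and *Cldn6* are printed with the site in capitals. A match is a description of the letters and not evidence of binding, and miRNA levels were not measured in these libraries.
Vim ESCC site: gaaagaagctcAGCACTTAacaactgacac
Fn1 miR-200b/c site: tcaatttttccCAGTATTtttatacggaa
Fn1 miR-200a site: tcagtactgctCAGTGTTgtttaagagaa
Cldn6 miR-200a site: gatcttctgtgCAGTGTTctaaggctgcc

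RefSeq promoter windows ran from 250 bases before to 50 bases after the annotated start. They were used for *Epcam*, *Cldn6*, *Krt8*, *Krt18* and *Vim*, and not for *Cdh1*, *Cdh2*, *Lgals1*, *Fn1* and *Zeb1*. The E-box CACCTG, searched on both strands and hence also as CAGGTG, was present in 20.2% of 32851 promoters of this length. *Epcam* and *Cldn6* each held 2 matches, *Krt8* and *Krt18* each held 1, and *Vim* held none. The match of *Krt8* lay 111 bases before the start and is not printed. Those of *Epcam*, *Cldn6* and *Krt18* are shown in capitals within windows of 30 bases on the strand of the gene, to show their place.
Epcam, chr17:87635780-87635809, plus strand, 187 bases before the start: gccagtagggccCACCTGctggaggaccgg
Epcam, chr17:87635948-87635977, plus strand, 19 bases before the start: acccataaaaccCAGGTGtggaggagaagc
Cldn6, chr17:23679260-23679289, plus strand, 93 bases before the start: gggaaacgcacgCAGGTGgctatcgccgca
Cldn6, chr17:23679385-23679414, plus strand, 40 bases after the start: aatcttagcagtctcttttgCAGGTGagcc
Krt18, chr15:102027990-102028019, plus strand, 214 bases before the start: aggggctaacacCACCTGctatcctttgtg

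The 4sU libraries held 2441639 to 3570192 counts, and the total RNA libraries 5724179 to 7369651. Levels below are CPM scaled by TMM (trimmed mean of M values) factors, called scaled CPM, and a gene is called changed where the edgeR quasi-likelihood test gave an adjusted p under 0.05 together with a log2 fold change beyond 1 in either direction. *Ddx6*, the targeted gene, lay between 335 and 393 scaled CPM in wild-type total RNA and between 21.6 and 68.0 in *Ddx6* KO, which matched the labels. The 6 ESC markers summed to between 3075 and 3190 scaled CPM in wild-type total RNA and to between 3588 and 3810 in *Ddx6* KO. By edgeR, 0 of the 6 were changed in total RNA, also by DESeq2 and limma-voom. By adjusted p alone, 4 of the 6 were higher in *Ddx6* KO and 0 were lower, against 19.5% and 31.0% of all tested genes. The fibroblast markers *Postn*, *Dcn* and *Twist2* had 0 counts in all 7 total RNA libraries. The 10 fibroblast markers summed to 17.4 to 21.2 scaled CPM in wild-type total RNA, against 22 to 25.5 in *Ddx6* KO.

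**Figure D1:**
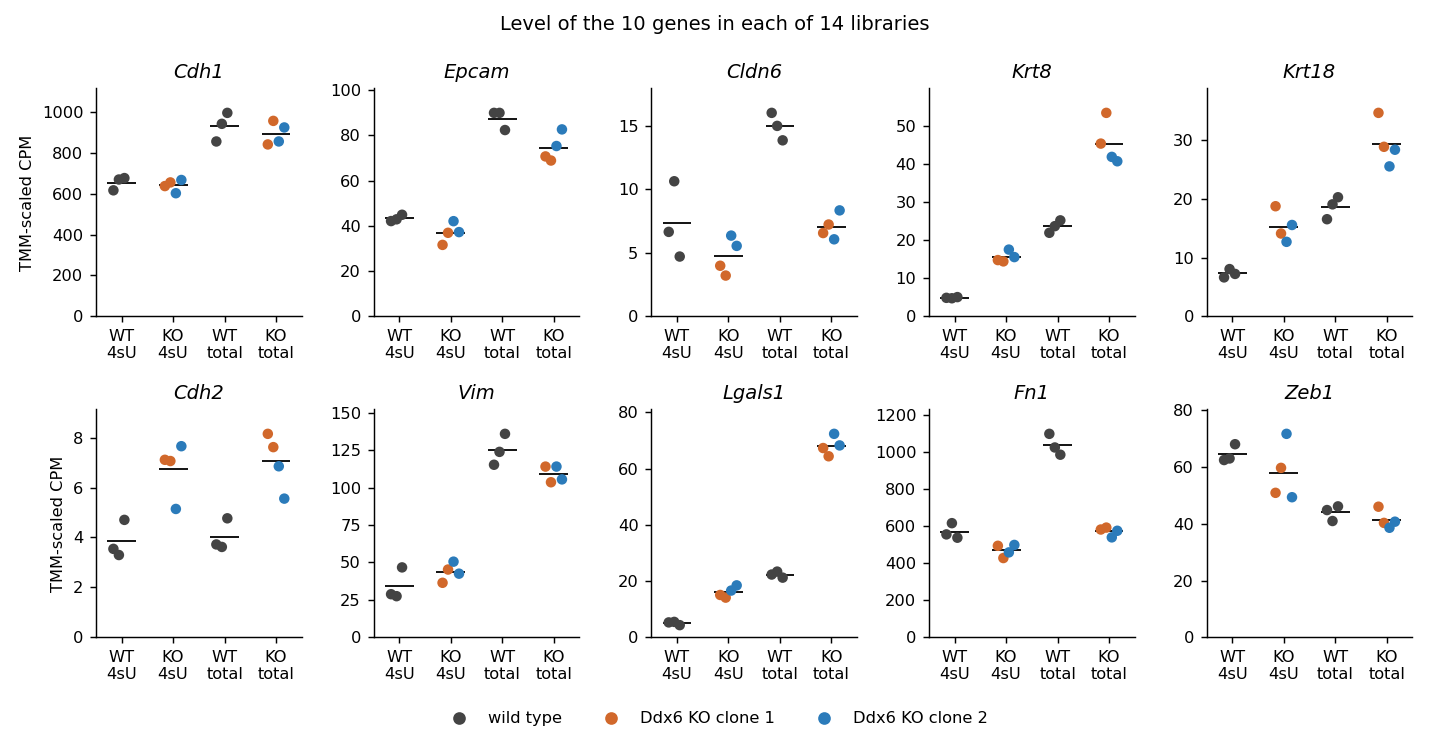
Scaled CPM (vertical axis, linear from 0) of each gene in every library, with wild-type cultures in dark grey, *Ddx6* KO clone 1 in orange and clone 2 in blue, and the group mean as a line. *Lgals1*, *Krt8*, *Krt18* and *Cdh2* were higher in every *Ddx6* KO culture in both fractions, *Fn1* was lower in both, and *Cdh1* overlapped in both.

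In total RNA, 1 of the 10 genes was changed upwards, *Lgals1*, and 1 downwards, *Cldn6*, against 5.28% and 4.86% of all tested genes. In nascent RNA 3 of 10 were changed upwards, *Krt8*, *Krt18* and *Lgals1*, against 5.13% of all tested genes. Downwards, 0 of 10 were changed in nascent RNA by edgeR, DESeq2 and limma-voom, against 5.8% of all tested genes. At an unadjusted p below 0.05, 3 of 10 were lower in edgeR and DESeq2 and 1 in limma-voom. The share of all tested genes at an unadjusted p was not computed, for this count or those below. By adjusted p alone, 4 genes were higher and 1 lower in nascent RNA, where 20.6% and 21.0% of all genes were, and 4 were higher and 4 lower in total RNA, where 19.5% and 31.0% were. All 4 *Ddx6* KO cultures lay on 1 side of all 3 wild-type cultures for 6 of the 10 genes in nascent RNA, against 41.7% of tested genes, and for 7 of 10 in total RNA, against 52.4%. The median log2 fold change of the 10 genes was 0.15 in nascent RNA and -0.07 in total RNA, beside 0.00094 and -0.10 over all tested genes. Epithelial and mesenchymal genes were thus found on both sides of zero, and the genes are taken by role below.

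*Cdh1* (ENSMUSG00000000303.12, chromosome 8 from 106603351 to 106670246), the E-cadherin gene, was the most abundant of the 10 per kb of transcript. In total RNA its scaled CPM was 855, 941 and 994 in wild type, 840 and 955 in *Ddx6* KO clone 1, and 855 and 923 in clone 2. In nascent RNA it was 616, 669 and 676 in wild type, 637 and 655 in clone 1, and 602 and 666 in clone 2. The groups overlapped in both fractions. The log2 fold change was -0.06 ± 0.0543 (SE) in total RNA (adjusted p = 0.388) and -0.03 ± 0.0575 in nascent RNA (adjusted p = 0.702), and both signs flipped under scaling by library size only, to 0.10 and 0.17 (adjusted p = 0.124 and 0.00903). In all, the total value kept its sign in 14 of 17 alternative settings and the nascent value in 13 of 17, and without *Ddx6* KO clone 2 replicate 1 the nascent value was 0.009. That scaling moved the median of all genes from 0.00094 to 0.21 in nascent RNA and from -0.10 to 0.06 in total RNA.

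*Epcam* (ENSMUSG00000045394.8, chromosome 17 from 87635979 to 87651106) encodes a homophilic adhesion molecule of epithelia and ESCs. Its total RNA was 89.9, 89.9 and 82.3 scaled CPM in wild type, 70.6 and 68.8 in clone 1, and 75.2 and 82.6 in clone 2, so that the highest clone 2 culture just overlapped wild type. The log2 fold change in total RNA was -0.23 ± 0.0757 (adjusted p = 0.00832), and its adjusted p was below 0.05 in 12 of 17 alternative settings. Among the others were library size only (-0.08, adjusted p = 0.428) and the fit without *Ddx6* KO clone 1 replicate 2 (adjusted p = 0.0551). In nascent RNA the wild-type *Epcam* values lay from 42.1 to 44.9 and those of *Ddx6* KO from 31.6 to 42.1, apart by a narrow gap, with a log2 fold change of -0.23 ± 0.115 (adjusted p = 0.0996).

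*Cldn6* (ENSMUSG00000023906.2, chromosome 17 from 23679365 to 23682446), a tight junction claudin of early epithelia and pluripotent cells, showed the largest fall of the 10 in total RNA. Its scaled CPM was 16, 15.0 and 13.8 in wild type, 6.55 and 7.22 in clone 1, and 6.06 and 8.34 in clone 2, and the groups did not overlap. The level was 2.12-fold lower in *Ddx6* KO (log2 fold change -1.08 ± 0.179, adjusted p = 8.23e-07). This value sits close to the fold threshold, and without *Ddx6* KO clone 2 replicate 1 it was -0.997 and no longer called. With library size only it was -0.93, and with TMM within each assay -0.99. In nascent RNA *Cldn6* had only 10 to 29 counts per library, with 4.71 to 10.6 scaled CPM in wild type and 3.21 to 6.35 in *Ddx6* KO. The nascent groups overlapped, and the log2 fold change of -0.61 ± 0.292 had an adjusted p of 0.0868. It was -0.22 (adjusted p = 0.67) without wild-type replicate 2, -0.87 (adjusted p = 0.0237) without wild-type replicate 3 and -1.01 (adjusted p = 0.0264) with *Ddx6* KO clone 1 only.

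*Krt8* (ENSMUSG00000049382.9, chromosome 15 from 101996711 to 102004342, minus strand) and *Krt18* (ENSMUSG00000023043.6, chromosome 15 from 102028216 to 102032026, plus strand) encode the type II and type I keratins that pair into the filaments of simple epithelia. Both were higher in *Ddx6* KO. *Krt8* total RNA was 22, 23.7 and 25.2 scaled CPM in wild type, 45.4 and 53.5 in clone 1, and 41.9 and 40.8 in clone 2. *Krt18* total RNA was 16.6, 19.1 and 20.3 in wild type, 34.7 and 28.9 in clone 1, and 25.6 and 28.4 in clone 2. Neither gene's groups overlapped. The log2 fold changes in total RNA were 0.94 ± 0.105 for *Krt8* (adjusted p = 3.54e-11) and 0.64 ± 0.122 for *Krt18* (adjusted p = 1.06e-05). *Krt8* thus rose 1.92-fold, just under the fold threshold, and passed it with library size only (1.10), with TMM within each assay (1.03) and without *Ddx6* KO clone 2 replicate 2 (1.00).

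The rise of both keratins was also present in nascent RNA. *Krt8* went from 4.76 to 5.07 scaled CPM in wild type to 14.4 to 17.5 in *Ddx6* KO, a 3.17-fold difference (log2 fold change 1.66 ± 0.232, adjusted p = 2.45e-08). *Krt18* went from 6.65 to 8.06 to between 12.7 and 18.8, a 2.09-fold difference (log2 fold change 1.06 ± 0.218, adjusted p = 6.13e-05). The *Krt18* call rested on a narrow margin. Its log2 fold change was 0.999 without wild-type replicate 1 and 0.95 without *Ddx6* KO clone 1 replicate 1. It was called in 13 of 17 alternative settings, and not with *Ddx6* KO clone 2 only. The counts behind these values were small, at 11 to 14 per wild-type library for *Krt8* and 15 to 22 for *Krt18*. The genes lie 23874 bases apart, and the 6 other tested genes within 200 kb had nascent log2 fold changes between -0.65 and 0.41. A *Krt8* pseudogene is annotated, and reads that map equally well to both were discarded by the authors' use of uniquely mapped reads.

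Of the mesenchymal genes, *Lgals1* (ENSMUSG00000068220.5, chromosome 15 from 78926725 to 78930465) changed most. It encodes galectin-1, a secreted lectin that binds glycans on the cell surface and in the matrix. In total RNA it was 22.3, 23.4 and 21.2 scaled CPM in wild type, 67.3 and 64.4 in clone 1, and 72.3 and 68.2 in clone 2. In nascent RNA it was 5.32, 5.50 and 4.34 in wild type, 15.1 and 14.1 in clone 1, and 16.6 and 18.5 in clone 2. Every *Ddx6* KO culture was far above every wild-type culture in both fractions. The rise was 3.05-fold in total RNA (log2 fold change 1.61 ± 0.0958, adjusted p = 2.16e-21) and 3.20-fold in nascent RNA (1.68 ± 0.217, adjusted p = 3.41e-09). It was called in nascent and in total RNA under all 17 alternative settings. *Lgals1* also has annotated pseudogenes, with the same limit as for *Krt8*.

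*Cdh2*, the N-cadherin gene, was the least abundant of the 10 per kb of transcript. Its total RNA was 3.72, 3.62 and 4.77 scaled CPM in wild type, 8.15 and 7.62 in clone 1, and 6.85 and 5.56 in clone 2, from 20 to 58 counts per library. Its nascent RNA was 3.54, 3.30 and 4.71 in wild type, 7.11 and 7.06 in clone 1, and 5.14 and 7.66 in clone 2. The groups did not overlap in either fraction. The rise was 1.73-fold in total RNA (log2 fold change 0.79 ± 0.228, adjusted p = 0.00289) and 1.74-fold in nascent RNA (0.80 ± 0.313, adjusted p = 0.0338), below the fold threshold in both. The nascent value passed adjusted p below 0.05 in 6 of 17 alternative settings and the total value in 16 of 17.

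*Fn1* (ENSMUSG00000026193.15, chromosome 1 from 71585520 to 71653200, minus strand), the matrix ligand of several integrins, fell although it is counted among mesenchymal genes. Its total RNA was 1096, 1023 and 984 scaled CPM in wild type, 581 and 591 in clone 1, and 539 and 574 in clone 2. The groups did not overlap, and the fall was 1.81-fold (log2 fold change -0.86 ± 0.0544, adjusted p = 3.31e-20). In nascent RNA *Fn1* was 555, 615 and 537 in wild type, 493 and 427 in clone 1, and 458 and 498 in clone 2. That difference was smaller, at 1.21-fold (-0.28 ± 0.0585, adjusted p = 9.13e-05), and did not pass the test with library size only (-0.07, adjusted p = 0.324).

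*Vim* (ENSMUSG00000026728.9, chromosome 2 from 13573952 to 13582826) had fold changes of opposite sign in the 2 fractions. In total RNA it was 115, 124 and 136 scaled CPM in wild type, 114 and 104 in clone 1, and 114 and 105 in clone 2. The log2 fold change of -0.20 ± 0.0822 (adjusted p = 0.0444) passed adjusted p below 0.05 in 5 of 17 alternative settings, and with library size only it was -0.04. In nascent RNA *Vim* was 28.8, 27.5 and 46.7 in wild type, 36.4 and 45.3 in clone 1, and 50.5 and 42.5 in clone 2. Wild-type replicate 3 stood well above the other wild-type cultures and inside the *Ddx6* KO range. The nascent log2 fold change was 0.33 ± 0.139 (adjusted p = 0.0532), with an adjusted p below 0.05 in 8 of 17 alternative settings. It was 0.63 (adjusted p = 0.000271) without wild-type replicate 3 and 0.18 (adjusted p = 0.391) without wild-type replicate 2, and 0.41 (adjusted p = 0.0172) without *Ddx6* KO clone 1 replicate 1.

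*Zeb1*, the repressor of epithelial genes, had overlapping levels in both genotypes. Its total RNA was 44.8, 41.0 and 46.1 scaled CPM in wild type, 46.0 and 40.3 in clone 1, and 38.6 and 40.8 in clone 2. Its nascent RNA spanned 62.5 to 68.0 in wild type against 49.4 to 71.7 in *Ddx6* KO. The groups overlapped in both, with log2 fold changes of -0.09 ± 0.0949 (adjusted p = 0.449) in total RNA and -0.16 ± 0.107 (adjusted p = 0.226) in nascent RNA, and both signs flipped with library size only, to 0.07 and 0.04. Without *Ddx6* KO clone 2 replicate 1 the nascent value was -0.27 (adjusted p = 0.041). The total value also changed sign with TMM within each assay and without the filter on low counts.

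**Figure D2:**
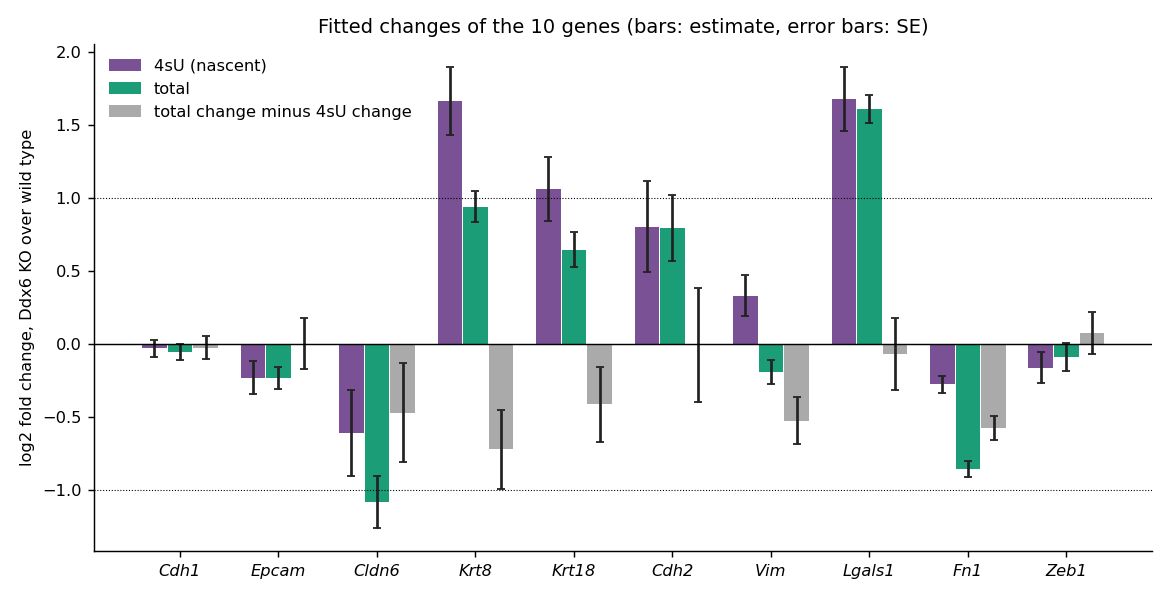
Fitted log2 fold change of *Ddx6* KO over wild type (vertical axis) for each gene as bars, in nascent RNA (purple), in total RNA (green) and as the total change minus the nascent change (grey), with SE as error bars and dotted lines at the fold threshold of 1 in either direction. *Lgals1*, *Krt8* and *Krt18* passed the upper line in nascent RNA, and *Cldn6* passed the lower line in total RNA.

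The order of the genes by scaled CPM per kb differed between genotypes. In wild-type total RNA the mean level per kb was 210 ± 15.9 (SD, n = 3) for *Cdh1*, 122 ± 6.73 for *Fn1*, 57.0 ± 4.73 for *Vim*, 42.8 ± 2.15 for *Epcam* and 27.9 ± 1.34 for *Lgals1*. Below these came *Krt18* at 13.3 ± 1.36, *Krt8* at 13.1 ± 0.906, *Cldn6* at 9.92 ± 0.717, *Zeb1* at 7.58 ± 0.462 and *Cdh2* at 0.815 ± 0.128. *Krt18* and *Krt8* were the neighbours in this order whose ranges overlapped. In *Ddx6* KO total RNA *Lgals1*, at 85.1 ± 4.12 (SD, n = 4), lay above *Fn1*, at 67.4 ± 2.70, and *Vim*, at 49.8 ± 2.53. *Krt8* and *Krt18* were at 25.1 ± 3.18 and 21.0 ± 2.73 with overlapping ranges, and *Zeb1*, at 7.14 ± 0.552, lay above *Cldn6*, at 4.68 ± 0.654. *Cdh1*, at 202 ± 12.4, remained the highest and *Cdh2*, at 1.42 ± 0.227, the lowest.

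The change of total RNA beyond that of nascent RNA was tested next, as the interaction of genotype and fraction, which the study uses as relative mRNA stability. By edgeR 0 of the 10 genes were changed in either direction, also by DESeq2 and limma-voom, where 0.689% of all tested genes were changed upwards and 0.393% downwards. At an unadjusted p below 0.05, 3 of 10 were lower in *Ddx6* KO, *Krt8*, *Vim* and *Fn1*, and 0 were higher. No share of all tested genes was computed at that level. By adjusted p alone 2 of 10 were lower, *Vim* and *Fn1*, against 8.58% of all genes, and 0 were higher, against 3.79%. The groups did not overlap for 3 of 10, *Krt8*, *Krt18* and *Fn1*, against 22.9%. The median over the 10 genes was -0.24 beside -0.09 over all tested genes, and 1 of 10 was above 0.

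*Fn1* showed the firmest difference of this kind. Its log2 ratio of total over 4sU was 0.98, 0.73 and 0.87 in wild type, 0.24 and 0.47 in clone 1, and 0.23 and 0.21 in clone 2. The interaction was -0.58 ± 0.0803 (adjusted p = 3.74e-07), a 1.49-fold lower ratio in *Ddx6* KO, and its adjusted p was below 0.05 in all 18 alternative settings. For *Vim*, the gene with the ESCC site printed above, the ratio was 1.98, 2.15 and 1.53 in wild type, 1.63 and 1.18 in clone 1, and 1.17 and 1.30 in clone 2. The interaction was -0.53 ± 0.161 (adjusted p = 0.0254), and its adjusted p was below 0.05 in 9 of 18 settings. It rose above 0.05 without wild-type replicate 1 (0.0821), wild-type replicate 2 (0.193), *Ddx6* KO clone 1 replicate 2 (0.0849), clone 2 replicate 1 (0.0704) or clone 2 replicate 2 (0.0604).

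*Krt8* and *Krt18* had lower ratios in every *Ddx6* KO culture, although the interaction did not pass the test in either gene. The *Krt8* ratio was 2.06, 2.20 and 2.21 in wild type, 1.59 and 1.85 in clone 1, and 1.23 and 1.36 in clone 2 (interaction -0.72 ± 0.268, adjusted p = 0.0645, and 0.0333 without *Ddx6* KO clone 1 replicate 2). The *Krt18* ratio spanned 1.19 to 1.43 in wild type against 0.85 to 1.01 in *Ddx6* KO (interaction -0.42 ± 0.256, adjusted p = 0.321). *Lgals1*, which rose in both fractions, had an interaction of -0.07 ± 0.246 (adjusted p = 0.911). The interactions of *Cdh1* (-0.03 ± 0.0792), *Cdh2* (-0.01 ± 0.39), *Zeb1* (0.07 ± 0.143) and *Cldn6* (-0.47 ± 0.342) had adjusted p between 0.426 and 0.992. That of *Epcam* was -0.00036 ± 0.175.

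In wild type the genes spanned a wide part of the ratio. *Krt8* (mean log2 ratio 2.16 ± 0.0817 SD, n = 3), *Lgals1* (2.04 ± 0.106) and *Vim* (1.89 ± 0.321) stood at the 98.4th, 97.7th and 96.3rd percentile of all tested genes. Per wild-type 4sU library, the *Krt8* ratio rested on 11 to 14 counts and the *Lgals1* ratio on 12 to 15. The wild-type *Krt8* level also differed between the sequencing runs, as given below. *Krt18* followed at 1.29 ± 0.12, *Cldn6* at 1.05 ± 0.512, *Epcam* at 1.00 ± 0.119 and *Fn1* at 0.86 ± 0.125, and these 4 were at the 86.0th, 80.1st, 78.7th and 74.8th percentile. *Cdh1* at 0.51 ± 0.0442 and *Cdh2* at 0.07 ± 0.0504 lay at the 63.3rd and 49.8th, and *Zeb1* at -0.55 ± 0.0708 at the 34.6th. *Zeb1* was the single gene of the 10 with a wild-type mean below 0.

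**Figure D3:**
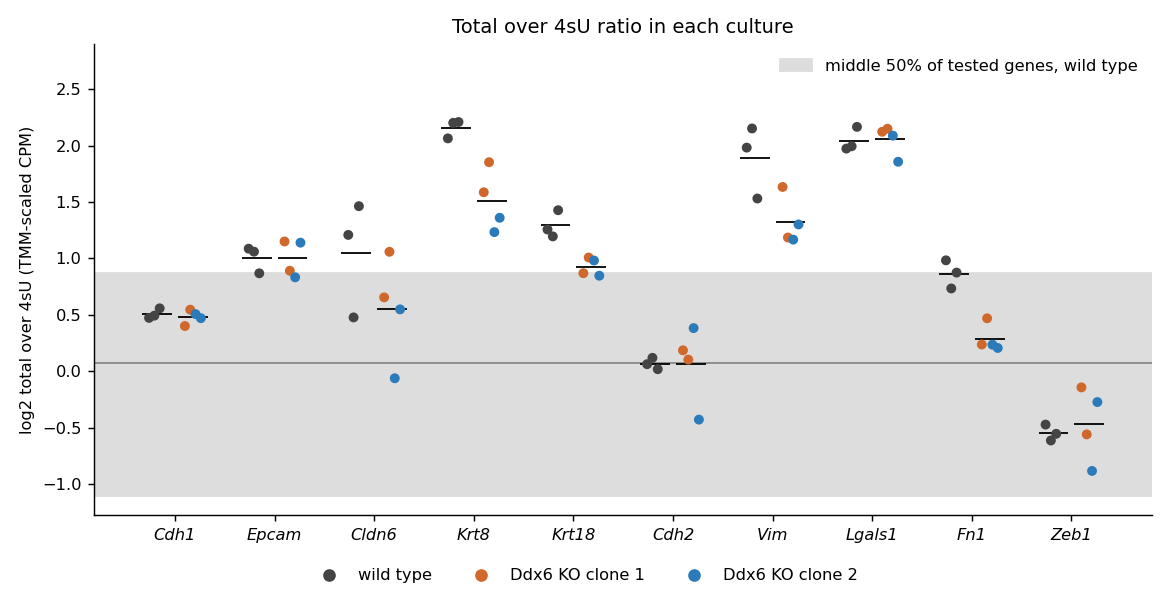
Log2 ratio of total over 4sU in each culture (vertical axis) for the 10 genes, wild type in dark grey, *Ddx6* KO clone 1 in orange and clone 2 in blue, with group means as lines and the middle 50% of tested genes in wild type as a grey band. *Krt8*, *Krt18* and *Fn1* had lower ratios in all *Ddx6* KO cultures than in any wild-type culture, and *Krt8*, *Lgals1* and *Vim* lay above the band.

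The 4sU libraries were sequenced in 2 runs that were summed, and the changes were also fitted on each run alone. The estimates lay furthest apart for *Krt8* and *Cldn6*. *Krt8* was at 5.64 ± 0.489 CPM in wild type and 12.5 ± 0.978 in *Ddx6* KO in the first run, and at 3.05 ± 0.325 and 22.2 ± 4.64 in the re-sequenced run. Its nascent log2 fold change was therefore 0.98 ± 0.305 in the first run and 2.63 ± 0.366 in the re-sequenced run. *Cldn6* had a nascent log2 fold change of -0.09 ± 0.341 in the first run and -2.13 ± 0.549 in the re-sequenced run, where the *Ddx6* KO libraries held 0 to 5 counts each. The interaction of *Krt8* moved with it, from -0.03 (adjusted p = 0.976) to -1.69 (adjusted p = 0.00364), and that of *Cldn6* changed sign, from -0.98 (adjusted p = 0.0946) to 1.05 (adjusted p = 0.32). *Lgals1*, at 1.71 ± 0.281 and 1.63 ± 0.358, *Fn1*, at -0.27 in each run, and *Krt18*, at 0.96 ± 0.27 and 1.26 ± 0.344, had overlapping SE ranges in both runs. *Vim* was at 0.23 ± 0.15 (adjusted p = 0.247) in the first run and 0.54 ± 0.192 (adjusted p = 0.0271) in the re-sequenced run, and *Zeb1* at -0.23 ± 0.125 and -0.04 ± 0.149. The estimates of *Vim*, *Zeb1*, *Cdh1*, *Epcam* and *Cdh2* also had overlapping SE ranges. The difference between runs was not tested.

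**Figure D4:**
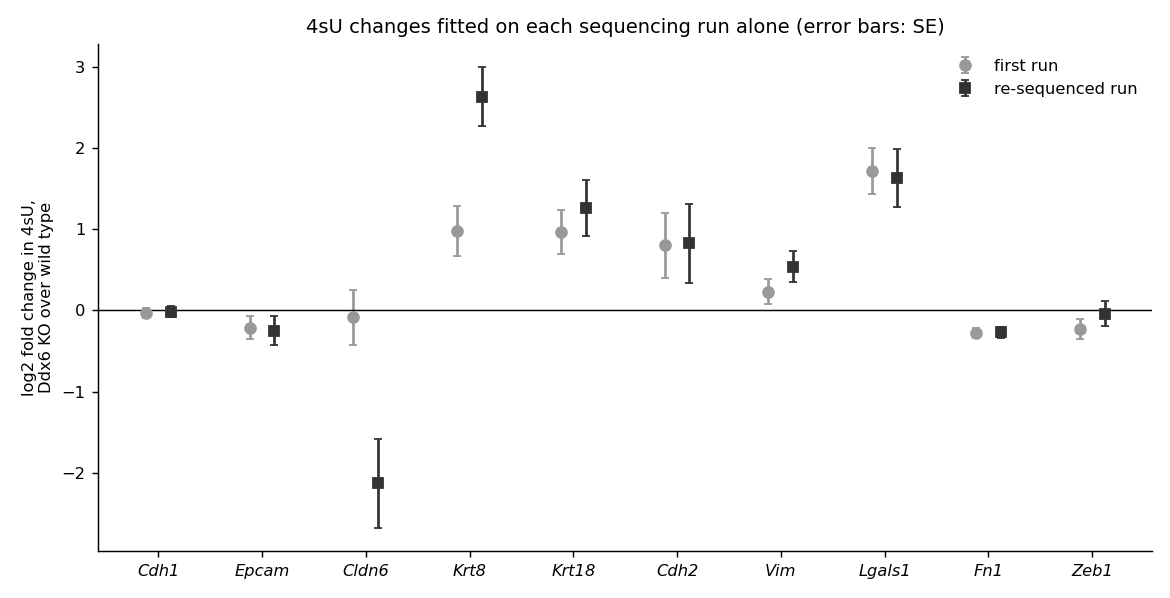
Nascent log2 fold change of *Ddx6* KO over wild type (vertical axis) fitted on the first run (grey circles) and the re-sequenced run (black squares) of the 4sU libraries, with SE as error bars. The runs lay apart for *Krt8* (0.98 and 2.63) and *Cldn6* (-0.09 and -2.13).

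Ratios of a pair of genes within a library do not depend on the scaling between libraries, and 3 ratios were compared in both fractions, with an exact two-sided permutation test over cultures. With 3 cultures against 4 the smallest p is 0.0571, so that no ratio could pass 0.05, and p values were adjusted over the 6 tests. *Cdh1* over *Cdh2*, the classical cadherin balance, was 259 in wild-type total RNA and 143 in *Ddx6* KO (geometric means of the ratio per kb). Its log2 value fell by 0.86 in total RNA and by 0.84 in nascent RNA, with no overlap between groups (exact p = 0.0571 and adjusted p = 0.0686 for each). E-cadherin transcripts still outnumbered N-cadherin transcripts by far in every library. *Vim* over *Krt8* fell by 1.13 in total RNA, from 4.35 to 1.99, and by 1.28 in nascent RNA, from 5.60 to 2.30, again with exact p = 0.0571 and no overlap.

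*Krt8* over *Krt18* was 0.98 in wild-type total RNA and 1.20 in *Ddx6* KO, a log2 difference of 0.28 with overlapping groups (exact p = 0.114). In nascent RNA the log2 difference was 0.61 (exact p = 0.0571), but it was -0.0045 in the first run alone and 1.37 in the re-sequenced run alone. The *Vim* over *Krt8* difference in nascent RNA likewise went from -0.68 in the first run to -2.06 in the re-sequenced run.

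**Figure D5:**
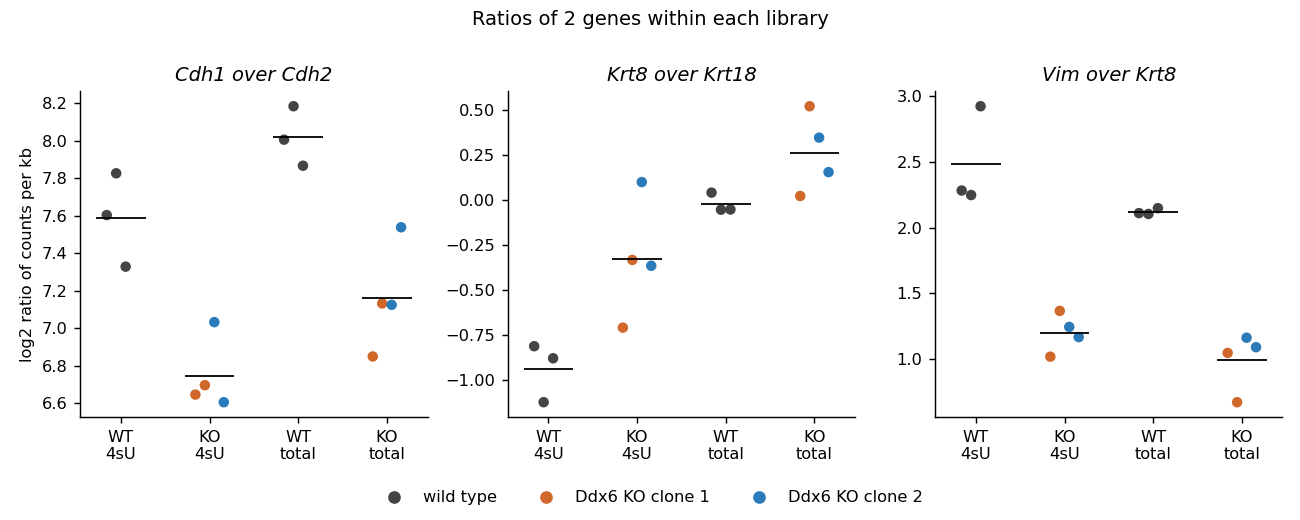
Log2 ratio of counts per kb (vertical axis) for 3 pairs of genes within each library, wild type in dark grey, *Ddx6* KO clone 1 in orange and clone 2 in blue, with group means as lines. *Cdh1* over *Cdh2* and *Vim* over *Krt8* were lower in all 4 *Ddx6* KO cultures than in all 3 wild-type cultures in both fractions, while *Krt8* over *Krt18* overlapped in total RNA.

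The *Ddx6* KO clones were compared with each other on the same genes. By edgeR 0 of 10 genes differed between clone 2 and clone 1 by adjusted p alone in nascent RNA, in total RNA or in the interaction, and DESeq2 and limma-voom gave 0 as well. Among all tested genes 0.172%, 0.296% and 0.00689% differed in these 3 contrasts. At an unadjusted p below 0.05, 1 of the 10 differed in total RNA, *Krt8*, which was lower in clone 2 by a log2 value of -0.26 ± 0.116 (adjusted p = 0.681). The largest estimate was that of *Cldn6* in nascent RNA, 0.71 ± 0.396 higher in clone 2 (adjusted p = 0.824). With 2 cultures per clone these SEs leave room for sizeable differences in the low-count genes.

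Other genes of the same programmes were read from 3 lists of textbook members. Of 42 mesenchymal and matrix genes 28 were tested. In total RNA 12 were changed upwards by edgeR and 0 downwards, where 5.28% and 4.86% of all tested genes were changed. Downwards, the number was also 0 by DESeq2 and limma-voom. By adjusted p alone, 17 were higher and 3 lower, against 19.5% and 31.0% of all tested genes. At an unadjusted p below 0.05, 4 were lower, with no share of all tested genes computed at that level. In nascent RNA 10 were changed upwards and 1 downwards, against 5.13% and 5.8% of all tested genes. The list's median was a log2 fold change of 0.71 in total and in nascent RNA, beside -0.10 and 0.00094 over all tested genes. The largest rises in total RNA were those of *Thbs1*, which encodes the matrix protein thrombospondin-1 (log2 fold change 2.89, adjusted p = 8.89e-07), the TGF-beta receptor *Tgfbr2* (2.48, adjusted p = 2.48e-15) and *Fbn1*, which encodes the microfibril protein fibrillin-1 (2.13, adjusted p = 3.31e-19). In nascent RNA they were those of *Anxa1*, a membrane-binding annexin (3.07, adjusted p = 6.54e-10), *Thbs1* (2.79) and the ecto-enzyme *Nt5e* (2.64), while *Snai2*, a repressor of the Snail family, was lower (-1.04, adjusted p = 0.0096). *Anxa1* and *Thbs1* had at most 3 counts in a wild-type 4sU library, and *Thbs1* at most 4 in a wild-type total library, so that their fitted fold changes depend on the prior count. In the interaction 2 of the 28 were changed upwards and 2 downwards, where 0.689% and 0.393% of all tested genes were. Among them *Snai1*, another repressor of the Snail family, was higher (2.02), and *Lgals3* (-1.65) and *Anxa1* (-1.62) were lower. Low counts limit these values too. *Snai1* had at most 4 counts in a wild-type total library and 20 in *Ddx6* KO, and *Lgals3* at most 9 in a wild-type 4sU library.

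The mesenchymal list shares 6 of its genes with the 10 fibroblast markers, whose sum was higher in *Ddx6* KO as given above. Of these markers 4 were tested in total RNA, where *Thy1* was changed upwards (log2 fold change 1.47, adjusted p = 2.02e-06), *Col1a1* was higher by adjusted p alone (0.97, adjusted p = 0.00486), *Pdgfrb* was lower by adjusted p alone (-0.94, adjusted p = 0.000203) and *Fbln2* was at 0.40 (adjusted p = 0.189). The part of such cells in the list's counts was not tested. The fibroblast genes *Col1a2*, *Col3a1* and *Lum* had at most 2 counts in any total RNA library, and *Postn*, *Dcn* and *Twist2* had 0. In bulk RNA, fewer cells of a type and less RNA per cell cannot be told apart.

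Of 48 epithelial junction and identity genes 45 were tested, with 4 changed upwards and 4 downwards in total RNA, against 5.28% and 4.86% of all tested genes, and 5 and 2 in nascent RNA, against 5.13% and 5.8%. The list's median log2 fold change was 0.01 in total RNA and 0.13 in nascent RNA. Upwards in total RNA were *Krt19*, another simple-epithelium keratin (1.82, adjusted p = 1.56e-07), *Perp*, which encodes a desmosomal protein (1.35, adjusted p = 5.01e-13), and *Krt7* (1.09, adjusted p = 0.00496). Downwards were desmoplakin, *Dsp* (-1.15, adjusted p = 2.93e-16), the polarity gene *Llgl2* (-1.14, adjusted p = 3.03e-22) and the transcription factor *Grhl3* (-1.07, adjusted p = 5.59e-11). In nascent RNA the claudin *Cldn4* went from 147 ± 10.8 (SD, n = 3) to 343 ± 53.5 (n = 4) scaled CPM (log2 fold change 1.22, adjusted p = 3.79e-14), and *Krt19* (1.42) and *Cldn7* (1.26) were also higher. *Ppl*, the periplakin gene (-1.81), and the tight junction gene *Tjp3* (-1.07) were lower. *Krt7* alone was changed in the interaction (1.90, adjusted p = 0.0366), where 0.689% of all tested genes were changed upwards and 0.393% downwards. It was not called there by DESeq2, and had at most 7 counts in a wild-type and 6 in a *Ddx6* KO 4sU library. *Krt7* is also 1 of the 8 trophoblast markers, whose sum lay between 59.1 and 71.9 scaled CPM in wild-type total RNA and between 55.6 and 63.5 in *Ddx6* KO. The 14 primitive endoderm markers summed to between 426 and 441 in wild-type total RNA and between 358 and 393 in *Ddx6* KO.

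Of 28 integrin and focal adhesion genes 21 were tested, and 2 were changed upwards and 2 downwards in total RNA, against 5.28% and 4.86% of all tested genes. *Zyx*, which encodes the focal adhesion protein zyxin (1.67, adjusted p = 1.89e-18), and the integrin *Itga9* (1.45, adjusted p = 8.38e-17) were higher, and the integrin *Itgb5* (-1.17, adjusted p = 3.19e-18) and talin-2, *Tln2* (-1.08, adjusted p = 1.91e-21), were lower. *Zyx* lies on chromosome 6, where the median of 735 tested genes was 0.43 in total RNA, and none of the 10 genes described above is on that chromosome. In nascent RNA *Itga9* (1.34) and *Zyx* (1.07) were higher and *Itgb5* (-1.28) was lower, against 5.13% and 5.8% of all tested genes changed upwards and downwards. By adjusted p alone, 10 were higher and 3 lower in nascent RNA, against 20.6% and 21.0% of all tested genes. In total RNA 5 were higher and 6 lower, against 19.5% and 31.0%. The list's median log2 fold change was 0.32 in nascent and 0.07 in total RNA, beside 0.00094 and -0.10 over all tested genes. In the interaction 0 of 21 were changed by edgeR, DESeq2 and limma-voom. By adjusted p alone in edgeR, 1 was higher and 3 were lower, against 3.79% and 8.58% of all tested genes. At an unadjusted p below 0.05, 1 was higher and 8 were lower. Without a share of all tested genes at that level, these numbers cannot be read as an excess.

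Finally, the tested genes with the profile most like that of *Cdh1* and of *Vim* were sought, as the smallest root mean square difference of log2 deviations from the wild-type mean over the 14 libraries, among 9515 genes with at least 10 CPM in total RNA. For *Cdh1* these were *Ppil2*, *Rpf1* and *Igf2bp1*, at 0.0578, 0.0656 and 0.0659, beside a median of 0.264 over all candidates. For *Vim* they were *Rnf2*, *Max* and *Cops3*, at 0.0986, 0.116 and 0.12, beside a median of 0.371. The likeness is a description over libraries that share cultures.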

How the data were processed

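Nascent (4sU) and total RNA of 7 cultures of mouse ESCs were analysed. Per the labels and the study's methods, adapters were removed with Cutadapt 1.14, reads with a single mapping position were retained by STAR 2.5.3a on mm10, and featureCounts 1.5.3 assigned them, with its strand option, to Gencode M14 genes other than rRNA. What the authors deposited are raw counts per gene, of reads in the first run and of read pairs in the re-sequenced run of the 4sU libraries. Both runs were added up per library, as the series' description says of the original work. The authors also deposited gene lengths in bases, used here for levels per kb. 92 spike-in rows held 0 counts and were left out.

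A gene entered the tests when 3 or more libraries had 3 CPM or more, and edgeR 4.0.16 (R 4.3.3) fitted its quasi-likelihood model (TMM over 14 libraries, robust), with genotype, fraction and their interaction in 1 model and Benjamini-Hochberg adjustment over all 14518 genes. The SE given with its fold changes is the absolute log2 fold change divided by the square root of the F statistic. It is thus derived from the test, and not fitted directly. A second model with the clones apart compared clone 2 with clone 1. Ratios of total over 4sU used a pseudocount of 0.5 CPM. Exact permutation tests used scipy 1.17.1. The code was tested on simulated data. Alternatives were DESeq2 1.42.0, limma-voom (limma 3.58.1), other scalings, no filter, each run, each clone, each culture left out, and blocks. The 4sU and total libraries of a culture come from the same RNA, so culture pairs them, although their deviations from the clone or wild-type means correlated by 0.00352 to 0.0257. With 2 cultures per clone the deviations are mirror images, so both cultures of a clone give the same correlation. Replicate numbers shared across groups had correlations from -0.0714 to 0.0998. The sources do not say how the cultures of a clone or of wild type were separated, so p values measure the spread between these samples, which may be technical.

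The 10 genes and the gene lists were chosen with earlier results of these data known. From each list the text names up to 3 changed genes with the largest rise and up to 3 with the largest fall per contrast, and for *Cdh1* and *Vim* the 3 nearest profiles. Symbols came from the Gencode M21 annotation. Some items that these rules would name are not reported here.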

Additional observations from a re-analysis of the deposited data

Results flagged for a closer look

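In the ratio of total over 4sU for *Fn1*, *Ddx6* KO clone 1 replicate 2, at 0.47 on the log2 scale, stood apart from the other 3 *Ddx6* KO cultures, which lay between 0.21 and 0.24. Its gap to the nearest culture was 0.884 of the range of the 4 values, beyond the critical value of Dixon's test. Of 36 such groups of 4 values this was the only one to stand apart, and chance alone gives about 1.8.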

How the results depend on the processing

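For nascent RNA 3 genes were changed, and this number was 1 with the first run only, where *Krt8* (0.98) and *Krt18* (0.96) fell just below the fold threshold, 5 by adjusted p alone, and 2 to 3 with each culture left out. It was 4 with *Ddx6* KO clone 1 only and 2 with clone 2 only, where *Krt18* left. For total RNA 2 genes were changed, with 8 by adjusted p alone and 1 to 3 with each culture left out. The lower end came without *Ddx6* KO clone 2 replicate 1, which removed *Cldn6*. With library size only, with TMM within each assay and without the filter on low counts the number stayed at 2, but *Krt8* entered (1.10, 1.03 and 1.04) and *Cldn6* left (-0.93, -0.99 and -0.98). For the interaction 0 genes were changed, with 2 by adjusted p alone, 1 with the re-sequenced run only (*Krt8*), and 0 with each culture left out. With the replicate number as a replicate block the numbers were 3, 2 and 0, and with culture as a replicate block the interaction gave 0. These blocks left the numbers as they were, but under the block of replicate numbers, which are shared only as numbers, *Vim* had an adjusted p of 0.399 in total RNA and 0.00331 in nascent RNA. Among the within-library ratios, the log2 difference of 0.61 in *Krt8* over *Krt18* in nascent RNA was absent with the first run only (-0.0045). The cause was not tested. Between the clones 0 genes differed under all 8 alternatives. Depth limits *Krt8*, *Krt18*, *Lgals1*, *Cdh2* and *Cldn6* in 4sU, each with under 75 counts in every library.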
